A study of Mus musculus with 16 samples.

Results

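The transforming growth factor beta (TGF-β) genes described here are the ligand gene Tgfb1, the receptor genes Tgfbr1 and Tgfbr2, the signal transducer Smad3, the inhibitory Smad7, the repressors Ski and Skil, and the induced matrix gene Tgfbi. They were chosen by name as members of the TGF-β pathway, and make up 8 of the 31053 genes counted in each library. Live CD45+ cells, that is leukocytes, were magnetically enriched and sorted from subcutaneous tumors of C57BL/6J mice and profiled by 10x Genomics 3′ single-cell RNA sequencing. MC38 cells come from a colorectal carcinoma that is radioimmunogenic, whereas Panc02-SIY cells, a poorly radioimmunogenic pancreatic line, carry SIY as a model antigen. Tumors were left untreated or received a single CT-guided dose of 12 Gy and were taken 24 h later. This gave the groups untreated MC38, irradiated MC38, untreated Panc02-SIY and irradiated Panc02-SIY, with 4 libraries in each and 16 in all. All mice were of that genotype by the labels, and radiation was the only treatment. The labels do not tie a library to an animal, and the design text and the methods name different numbers of animals, so p-values here measure the spread between libraries.

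TGF-β is secreted in a latent form, and the released ligand binds the type II receptor (Tgfbr2), which recruits and phosphorylates the type I receptor (Tgfbr1). The type I receptor phosphorylates Smad2 and Smad3, which enter the nucleus with Smad4 and switch target genes on or off, among them Smad7, Skil and Tgfbi, whose products respectively block the receptor, repress Smad complexes and bind the extracellular matrix. In tumors the pathway is best known for restraining T cells, NK cells and dendritic cells, and macrophages and monocytes are among its sources and its responders.

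On GRCm38 (mm10), Tgfb1 lies at chr7:25687002-25705077, Tgfbi at chr13:56609523-56639562, Tgfbr1 at chr4:47353222-47414931 and Skil at chr3:31095058-31122577, all on the plus strand. Tgfbr2 lies at chr9:116084293-116175360, Smad3 at chr9:63646767-63757994 and Ski at chr4:155154075-155222592 on the minus strand. Values are unique molecular identifiers (UMIs) summed over the whole gene and show no exon or isoform. Tgfbi and Tgfbr2 had the largest called rise and fall of the members in the monocyte gate of irradiated Panc02-SIY, and they were the members, of 6 in the RefSeq promoter table, with a match to the Smad box in the only promoter listed for them. The box was searched as CAGAC or its complement GTCTG within 250 bases upstream of the RefSeq start. The sequences below are RefSeq GRCm38.p6, from 5′ to 3′ on the gene's strand and ending before the annotated gene, with the box in capitals, for Tgfbi at chr13:56609336-56609522 (plus) and for Tgfbr2 at chr9:116175364-116175613 (minus).
Tgfbi: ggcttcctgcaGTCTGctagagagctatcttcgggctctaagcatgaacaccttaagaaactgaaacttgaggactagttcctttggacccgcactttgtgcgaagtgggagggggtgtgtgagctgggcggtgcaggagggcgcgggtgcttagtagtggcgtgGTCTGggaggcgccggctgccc
Tgfbr2: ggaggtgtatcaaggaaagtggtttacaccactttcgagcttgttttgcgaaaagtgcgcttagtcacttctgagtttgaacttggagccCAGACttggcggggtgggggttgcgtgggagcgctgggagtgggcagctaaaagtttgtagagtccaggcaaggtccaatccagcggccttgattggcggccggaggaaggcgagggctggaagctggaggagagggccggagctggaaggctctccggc
Tgfbi holds 2 matches and Tgfbr2 holds 1, and 42.2% of the 32851 promoters in the table hold at least 1, so a match is a description of the letters and not a site. Tgfbr1 has 2 listed promoters, with 0 and 1 match, and the promoters of Tgfb1, Smad3 and Ski hold none.

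The 16 libraries held 28678 barcodes, and many barcode sequences recurred between libraries of the same tumor. The 9843 barcodes of the MC38 libraries were 2632 distinct sequences, of which 769 were present in all 8 libraries, against 60 of 18136 for Panc02-SIY. Each barcode was therefore used only in the library of its tumor where it had the most UMIs, which left 20768 barcodes and 1385711 to 43708746 UMIs per library. A kept library held a median of 76.4% of the UMIs of a shared MC38 barcode and 91.6% of those of a shared Panc02-SIY barcode. Barcodes were placed in 7 classes by marker genes that include no TGF-β gene, 29.8% stayed in no class, and 30 of 32 further markers not used for the gates were highest in their own class. Cadm1, a cDC check marker, was highest in macrophages. Macrophages and monocytes were the classes with the most barcodes in both MC38 groups, at 37 to 209 and 22 to 142 per library, so tests in lymphoid, neutrophil and conventional dendritic cell (cDC) gates were run in Panc02-SIY alone. Whether the shared sequences come from reads placed in more than 1 library or from repeated libraries was not tested, so the 8 MC38 libraries may not be independent of each other. The median macrophage barcode had 24252 to 29732 UMIs in the MC38 groups and 2332 to 3697 in the Panc02-SIY groups. Tumor type and depth cannot be told apart.

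The class with the highest mean was not the same for all 8 genes. Among Panc02-SIY classes, the mean of Tgfb1 was highest in monocytes, those of Tgfbi and Tgfbr2 in macrophages, those of Tgfbr1, Ski and Skil in neutrophils, and those of Smad3 and Smad7 in NK cells. Levels are CPM, the UMI counts of a class sum relative to its total, scaled by the trimmed mean of M-values (TMM) over all class sums, and are compared only within a gene, since 3′ UMIs are not per length. CPM of the tests between groups were scaled within a class and differ slightly from these. Classes were ordered by their Panc02-SIY mean of log2(CPM + 10), which for some genes differs from the order of the mean CPM given below. Neighbours on that log2 scale were compared within libraries in a two-sided permutation test of log2(CPM + 10), with Benjamini-Hochberg adjustment. Of 64 neighbour pairs, 63 could be tested and 6 passed at an adjusted p below 0.1. The smallest exact p is 0.0312 for a pair found in 6 libraries and 0.0156 for 7, and pairs at these values did not pass. A miss in so few libraries therefore does not show that 2 classes were alike. Only for Skil did the highest class pass against the next. No pair passed when any Panc02-SIY library other than irradiated replicate 1 was left out, and 8 passed without that one. Leaving out a library also raises the smallest exact permutation p of a pair found in 8 libraries from 0.00781 to 0.0156. These counts therefore do not measure the steadiness of the levels alone.

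**Figure D1:**
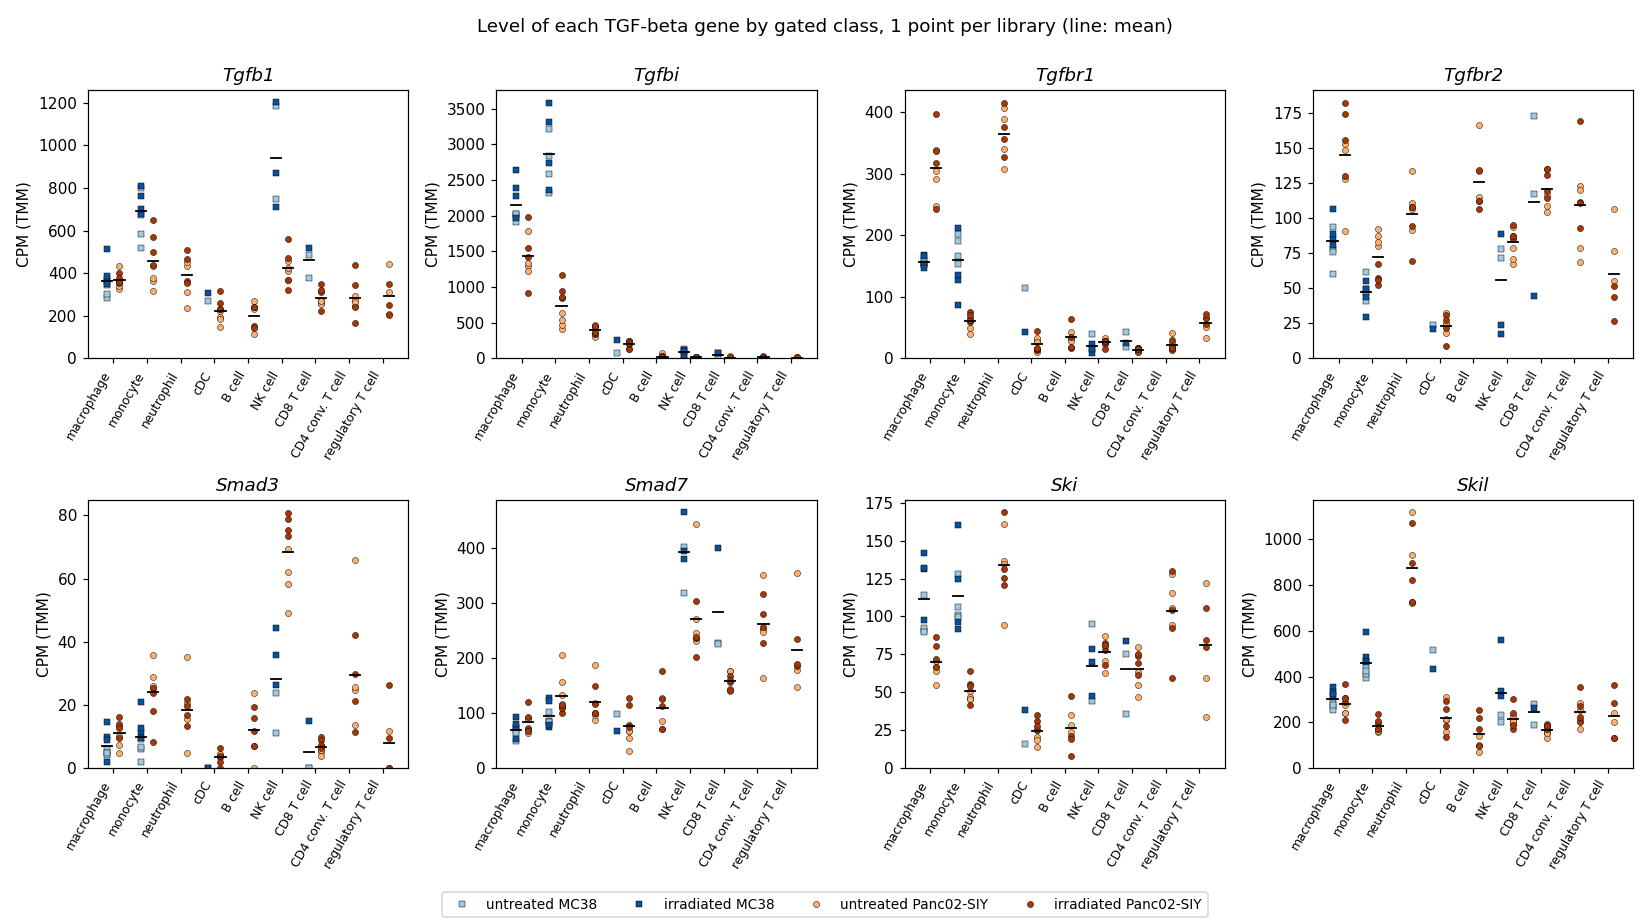
Level of each TGF-β gene (CPM, linear axes from 0) by gated class, with 1 point per library that held at least 10 barcodes of the class, squares for MC38, circles for Panc02-SIY and a line at the mean of 3 or more libraries. Skil in neutrophils, at 722 to 1121, stands above the other classes of that gene. Tgfbi has its highest points in macrophages and monocytes, but Panc02-SIY monocytes (416.5 to 1173) overlap Panc02-SIY neutrophils (302 to 470.5).

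The ligand gene Tgfb1 was found in every class and had the smallest ratio of highest to lowest class mean in Panc02-SIY. None of its 8 neighbour pairs passed the test, which also held for Tgfbr2, Smad3 and Ski. For each of these genes some pairs were found in too few libraries to pass. In Panc02-SIY its mean was 456 ± 111 CPM (SD, n = 8 libraries) in monocytes, 422.5 ± 74.6 in NK cells, 391 ± 90.1 in neutrophils and 368 ± 34.8 in macrophages. Regulatory T cells (293 ± 92.1, n = 6), CD4 conventional T cells (283 ± 80.8), CD8 T cells (282 ± 41.1), cDCs (224 ± 51.8) and B cells (199 ± 60.6, n = 7) followed. In MC38, NK cells had the highest mean, 942 ± 236 in the 5 libraries with enough barcodes, ranging from 710 to 1203. MC38 monocytes held 690 ± 102 and MC38 macrophages 365 ± 68.3 (n = 8 each).

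The receptors had unlike orders. Tgfbr1, which encodes the type I receptor, was high in neutrophils (309 to 415 CPM, median 366) and macrophages (242 to 397, median 312) of Panc02-SIY tumors, and low in all other classes there. Panc02-SIY monocytes reached 39.0 to 75.1 CPM, median 62.2, below every macrophage value, and regulatory T cells had a mean of 57.4 ± 14.1. B cells (34.1), NK cells (26.5), cDCs (24.0), CD4 conventional T cells (22.6) and CD8 T cells (14.1 ± 2.69) had the lowest means. Over all 16 libraries macrophages exceeded monocytes by 1.10 ± 0.29 (SE) on the log2 scale in 11 of 16 libraries (permutation p = 0.00317, adjusted p = 0.082). In MC38 alone the macrophage mean was 157 ± 7.45 and the monocyte mean 159 ± 42.4 CPM. Tgfbr2, which encodes the type II receptor, was spread more evenly, from 145 ± 29.0 in macrophages through B cells (125 ± 20.9), CD8 T cells (120.5 ± 11.9), CD4 conventional T cells (109 ± 31.1), neutrophils (103 ± 18.4), NK cells (83.1 ± 9.96), monocytes (72.0 ± 15.6) and regulatory T cells (26.4 to 107, n = 6) to cDCs. Panc02-SIY cDCs had 8.70 to 32.2 CPM of Tgfbr2, median 24.6. All 6 libraries in which both classes could be compared were lower in cDCs than in regulatory T cells, by 1.05 on the log2 scale (exact permutation p = 0.0312, adjusted p = 0.176). With 6 libraries 0.0312 is the smallest p possible, so this pair could not pass.

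Smad3 and Smad7 led in the same class. Smad3, the receptor-activated transducer, had 49.0 to 80.9 CPM, median 71.6, in Panc02-SIY NK cells and 3.75 to 9.79, median 6.57, in CD8 T cells, with no overlap. CD4 conventional T cells came next to NK cells at 29.3 ± 17.6, lower in 7 of 8 libraries by 1.09 ± 0.25 on the log2 scale (exact permutation p = 0.0156, adjusted p = 0.123). Monocytes (23.9 ± 8.02), neutrophils (18.4 ± 8.66), B cells (12.1 ± 8.14), macrophages (11.04 ± 3.79), regulatory T cells (7.94 ± 10.5), and cDCs (3.41 ± 1.85) were also low, and the 2 MC38 libraries with enough cDCs held no Smad3 UMI. Smad7, the inhibitory Smad, had means of 271 ± 75.6 in NK cells, 261.5 ± 56.5 in CD4 conventional T cells, 215 ± 74.0 in regulatory T cells and 158 ± 14.96 in CD8 T cells. Below these lymphoid classes were monocytes (131 ± 34.9), neutrophils (119 ± 33.4), B cells (110 ± 37.7), macrophages (83.3 ± 18.5) and cDCs (76.9 ± 31.1). The step from CD8 T cells to monocytes was 0.57 ± 0.17 on the log2 scale, in 10 of 11 libraries (permutation p = 0.00404, adjusted p = 0.082). The Panc02-SIY monocyte gate held T and NK cell markers, and their part in its Smad3 and Smad7 levels and ranks was not tested. Without barcodes holding T or NK cell marker UMIs, the Smad7 difference between untreated MC38 and Panc02-SIY monocytes turned from -0.77 to 1.12. Smad3 was not tested in that setting. In MC38 NK cells Smad7 was 392 ± 53.0 and Smad3 28.3 ± 12.6 CPM (n = 5).

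Skil, which encodes the repressor SnoN, stood apart in neutrophils. Panc02-SIY neutrophils had 722 to 1121 CPM, median 858, and no library of any other Panc02-SIY class exceeded 369. The mean of neutrophils was 877 ± 157 and that of macrophages, the next class, 279 ± 49.5, a log2 difference of 1.61 ± 0.10 in 8 of 8 libraries (exact permutation p = 0.00781, adjusted p = 0.082). This exact p is the smallest that 8 libraries can give. CD4 conventional T cells (246), regulatory T cells (226), cDCs (221) and NK cells (216) lay close together, and monocytes (183 ± 27.3) exceeded CD8 T cells (165 ± 20.8) by 0.33 ± 0.11 in 10 of 11 libraries (permutation p = 0.00531, adjusted p = 0.082). B cells were lowest, at 151 ± 68.0. Ski, the founding member of the same repressor family, was also highest in neutrophils (134 ± 23.2), followed by CD4 conventional T cells (104 ± 22.6), regulatory T cells (80.8 ± 31.6), NK cells (76.3 ± 8.36), macrophages (70.2 ± 9.77), CD8 T cells (65.6 ± 11.2) and monocytes (50.6 ± 7.17). B cells (26.1 ± 12.5) and cDCs (24.6 ± 6.80) were lowest. No neighbour pair of Ski passed the test, and some were found in too few libraries to pass.

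Tgfbi, the TGF-β-induced matrix protein gene, was a myeloid gene in these data. In Panc02-SIY it had 924 to 1984 CPM, median 1375, in macrophages, 416.5 to 1173, median 740, in monocytes and 302 to 470.5, median 409, in neutrophils. Monocytes exceeded neutrophils by 0.80 ± 0.20 on the log2 scale in 8 of 8 libraries, and neutrophils exceeded cDCs (206 ± 49.4) by 0.95 ± 0.16 in 8 of 8 (exact permutation p = 0.00781 and adjusted p = 0.082 for each). B cells (23.6), CD4 conventional T cells (16.8), NK cells (14.1), CD8 T cells (13.7) and regulatory T cells (12.1) had the lowest means, and cDCs exceeded B cells in 7 of 7 libraries by 2.91 ± 0.33 (exact permutation p = 0.0156, adjusted p = 0.123). With 7 libraries 0.0156 is the smallest p possible. Free RNA gives UMIs of abundant genes in every droplet, and over all libraries the T cell gate had 1.21% of the macrophage CPM of Tgfbi, 0.508% of that of Lyz2 and 0.499% of that of Apoe. Neutrophils had 20.2% of the macrophage CPM of Tgfbi against 8.45% of Lyz2 and 2.27% of Apoe, and cDCs 12.2% of Tgfbi against 5.96% of Lyz2 and 1.07% of Apoe. These ratios pool both tumors. Neutrophil barcodes were 594 and 1002 in untreated and irradiated Panc02-SIY and 7 and 4 in untreated and irradiated MC38, so tumor and class are mixed in the ratios. The part of free RNA in the Tgfbi levels was not tested. In MC38 the order of the myeloid classes was turned, with 2868 ± 461 in monocytes and 2153 ± 254 in macrophages (n = 8 each).

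The genes with the most similar pattern were found over 19 means of a class in a group, among 6140 genes with a mean of at least 20 CPM. As a description, the highest Pearson r values were 0.99 for Tgfbi with Milr1, Cd68 and Csf1r, the last 2 being macrophage genes. For Tgfbr1 they were 0.97 with Pilra and 0.96 with Fcgr4 and Abi3, and for Skil 0.95 with Zc3h12a, 0.93 with Ell2 and 0.92 with Gm13822. Smad7 gave 0.94 with Tecpr1, 0.92 with Vgll4 and 0.91 with Il18r1, and Smad3 0.89 with Itga2, 0.87 with Zfp36l2 and 0.84 with Nin. Ski gave 0.91 with Bcl2l1, 0.86 with Phlda1 and 0.85 with B4galt1. Tgfb1 gave 0.90 with Casp8, 0.87 with Slfn9 and 0.86 with Snx18, and Tgfbr2 0.85 with Ulk2, 0.83 with Ifi27 and 0.81 with Slc28a2. Among the members, Tgfbi and Tgfbr1 had r = 0.79, Smad3 and Smad7 0.79, Tgfbr1 and Skil 0.76, and Tgfbi and Smad7 -0.77. The means share libraries and depth, so no p is given.

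The first comparison between groups asked how the 8 genes differed between the radioimmunogenic and the poorly radioimmunogenic tumor before treatment. In untreated tumors, Tgfbi and Ski were higher in MC38 than in Panc02-SIY in both macrophages and monocytes. Tgfbr2 and Smad3 were lower in both in the gates as reported. Of these Tgfbr2 and Smad3 differences, only that of macrophage Tgfbr2 stayed called without barcodes holding T or NK cell marker UMIs. Tgfbr1 was lower in MC38 macrophages but higher in MC38 monocytes. Changes are log2 fold changes ± SE from edgeR's quasi-likelihood test on library sums, TMM-scaled within the class, adjusted by the Benjamini-Hochberg method over all genes tested, and a gene was called when that p was under 0.1 and it changed more than 1.3-fold in either direction. In macrophages 5 of 8 members were called, 2 higher and 3 lower in MC38, where 45.8% of all genes tested were called. In monocytes 8 of 8 were called, 5 higher and 3 lower, against 49.1% of all genes.

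**Figure D2:**
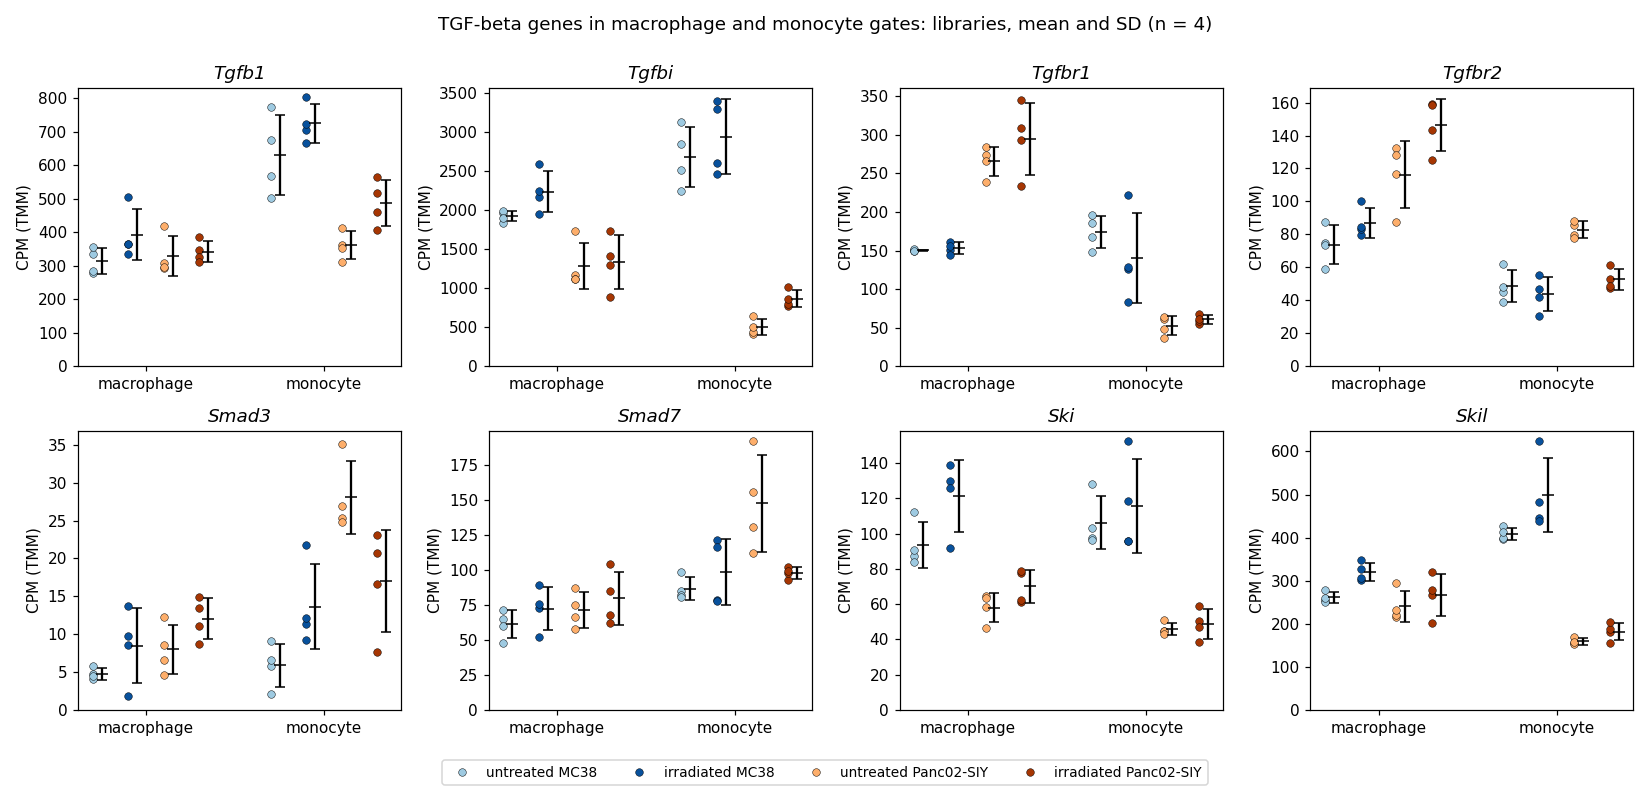
Each TGF-β gene (CPM, linear axes from 0) in macrophage and monocyte gates, with 1 point per library and the mean ± SD of 4 libraries beside each group. Tgfbr1 of untreated MC38 lies below untreated Panc02-SIY in macrophages and above it in monocytes.

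In macrophages of untreated MC38, Tgfbr1 was 150, 149, 152 and 150 CPM in replicates 1 to 4, and in untreated Panc02-SIY it was 239, 273, 266 and 284. The groups did not overlap, and the log2 difference was -0.84 ± 0.11 (edgeR adjusted p = 1.05e-06). In monocytes the same libraries held 167, 148, 185 and 196 CPM in MC38 and 61.5, 48.8, 63.4 and 36.4 in Panc02-SIY, again without overlap but in the other direction, by 1.75 ± 0.22 (edgeR adjusted p = 6.65e-07). The difference between the 2 classes was tested directly in a fit of 32 class sums with the library as a block, added after the opposite signs had been seen. That fit held all 16 libraries, untreated and irradiated together, so its values are not of untreated tumors alone. The tumor difference of macrophages minus that of monocytes was -2.34 ± 0.17 for Tgfbr1 (edgeR adjusted p = 5.81e-11). It was also called for Tgfbi (-1.43 ± 0.16), Skil (-1.22 ± 0.10), Tgfb1 (-0.64 ± 0.14) and Ski (-0.57 ± 0.16), which makes 5 of 8 members, against 22.8% of all genes. Tgfbr2 (-0.31 ± 0.20), Smad3 (0.79 ± 0.41) and Smad7 (0.14 ± 0.17) did not pass.

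Tgfbi was higher in MC38 in both classes. Untreated MC38 monocytes held 2843, 2237, 2509 and 3126 CPM, and untreated Panc02-SIY monocytes 637, 410, 442 and 509. Every MC38 library was above every Panc02-SIY library, with a log2 difference of 2.43 ± 0.15 (edgeR adjusted p = 2.35e-12). In macrophages Tgfbi was 1839, 1958, 1985 and 1897 against 1728, 1165, 1115 and 1120, a difference of 0.60 ± 0.16 (edgeR adjusted p = 0.00415). The macrophage groups did not overlap either, but Panc02-SIY replicate 1 lay near the MC38 values.

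The repressors were higher in MC38. Skil in untreated monocytes was 397, 427, 398 and 412 CPM in MC38 against 170, 154, 153 and 158 in Panc02-SIY, without overlap (1.37 ± 0.14, edgeR adjusted p = 9.67e-09). In macrophages Skil was 261 ± 12.4 and 240 ± 36.5, a difference of 0.16 ± 0.12 that did not pass (edgeR adjusted p = 0.295). Ski was higher in MC38 in both classes, by 0.74 ± 0.15 in macrophages and 1.21 ± 0.19 in monocytes, from 93.5 ± 12.9 against 58.0 ± 8.32 CPM and 106 ± 14.9 against 45.8 ± 3.41 (edgeR adjusted p = 0.000325 and 1.21e-05).

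The ligand was higher in MC38 monocytes, and the type II receptor and Smad3 were lower in both classes in the gates as reported. Tgfb1 was 676, 774, 566 and 502 CPM in untreated MC38 monocytes and 362, 312, 414 and 353 in untreated Panc02-SIY monocytes (0.80 ± 0.14, edgeR adjusted p = 5.94e-05, no overlap), while its macrophage levels were 313 ± 37.9 and 329 ± 59.9 (-0.03 ± 0.13). Tgfbr2 was lower in MC38 by 0.71 on the log2 scale in macrophages (73.9 ± 11.6 against 116 ± 20.4 CPM, with overlap) and by 0.80 in monocytes (48.5 ± 9.67 against 82.9 ± 5.02, without overlap; edgeR adjusted p = 0.000112 and 0.000799). Smad3 was 4.75 ± 0.756 CPM in macrophages and 5.865 ± 2.88 in monocytes of MC38, and 7.996 ± 3.25 and 28.1 ± 4.80 in Panc02-SIY (-0.86 ± 0.32 and -2.07 ± 0.37, edgeR adjusted p = 0.0288 and 7e-05). These Smad3 levels rested on 60 and 24 UMIs over the 4 MC38 libraries. Smad7 in monocytes was 86.5 ± 8.31 against 148 ± 34.5 (-0.77 ± 0.18, edgeR adjusted p = 0.000921), a difference that turned under other gates, as given next. In macrophages it was 61.0 ± 10.1 against 71.5 ± 12.7 (-0.17 ± 0.17, edgeR adjusted p = 0.44).

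Markers of other cells moved with these tumor differences. In the monocyte gate, 5 macrophage markers summed to 5830 to 8424 CPM per library in untreated MC38 and 891 to 1260 in untreated Panc02-SIY, while 5 T cell markers summed to 6.91 to 38.7 and 385 to 642, and 4 NK cell markers to 4.11 to 22.5 and 137 to 2963. None of these macrophage, T cell or NK cell markers was at 0 in any group, and the part of the macrophage markers in the tumor differences was not tested. In the macrophage gate, T cell markers summed to 2.08 to 6.98 CPM in untreated MC38 and 44.0 to 113 in untreated Panc02-SIY, 4 platelet markers to 244 to 409 and 25.1 to 95.1, 4 endothelial markers to 10.98 to 16.1 and 93.5 to 119, and 6 cDC markers to 168 to 326 and 601 to 830. Over all libraries, the cDC marker Cadm1 held 344 CPM in the macrophage gate against 178 in the cDC gate. The other cDC markers held 115 (Naaa), 29.2 (Relb), 13.6 (Clec9a), 2.65 (Kmo) and 1.57 CPM (Ccr7) in macrophages. Gp9 (platelet) and Tek (endothelial) were at 0 in untreated MC38 macrophages, Ppbp (platelet) in those of untreated Panc02-SIY, and the part of these cells was not tested. When only barcodes with no UMI of a T or NK cell gate marker were kept, a setting added after seeing the data, 6 of 7 members tested were higher in untreated MC38 monocytes and none was lower, against 34.5% of all genes called. Smad7 then turned to 1.12 ± 0.28 (edgeR adjusted p = 0.00362), Tgfbr2 was -0.21 ± 0.26 (edgeR adjusted p = 0.592), Tgfbi was 1.75 ± 0.14 and Tgfbr1 1.27 ± 0.29. Smad3, which was -2.07 in the monocyte gate as reported, fell below the low-count filter there and was not tested. Under a stricter gate Smad7 was 0.04 ± 0.23 (edgeR adjusted p = 0.911). Smad3 and Tgfbr2 stayed called under that gate, at -1.94 ± 0.51 and -0.62 ± 0.23 (edgeR adjusted p = 0.00415 and 0.0411). In macrophages without such UMIs 4 members were called, 2 in each direction, against 40.5% of all genes, and Smad3 was no longer called (-0.71, edgeR adjusted p = 0.168).

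Among all CD45+ barcodes, 8 of 8 members were called between untreated tumors, where 61.1% of all genes were. No member's groups overlapped, but the share of all genes without overlap is not given here. In such sums fewer cells of a type and less RNA per cell cannot be told apart. Tgfbi had the largest difference, 1971 ± 162 CPM in MC38 and 233 ± 95.1 in Panc02-SIY (3.08 ± 0.31). Tgfbr1 (1.11), Skil (0.82), Tgfb1 (0.71) and Ski (0.69) were also higher in MC38, and Tgfbr2 (-0.49), Smad7 (-0.63) and Smad3 (-1.69) were lower. Beside these, the 4 platelet markers summed to 156 to 228 CPM in untreated MC38 and 11.2 to 15.8 in untreated Panc02-SIY, and Gp9 was at 0 in untreated MC38. Their part in the results was not tested.

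In irradiated tumors most of the differences were called again. In macrophages 4 of 8 members were called (48.4% of all genes): Tgfbi 0.74 ± 0.16 and Ski 0.81 ± 0.15 higher in MC38, and Tgfbr1 -0.97 ± 0.11 and Tgfbr2 -0.76 ± 0.14 lower. In monocytes 5 of 8 were called, all higher in MC38 (47% of all genes): Tgfbi 1.77 ± 0.14, Skil 1.43 ± 0.13, Ski 1.31 ± 0.17, Tgfbr1 1.07 ± 0.20 and Tgfb1 0.57 ± 0.14. Monocyte Tgfbr2, Smad3 and Smad7, lower in untreated MC38 in the gate as reported, were -0.20 ± 0.17, -0.63 ± 0.32 and 0.07 ± 0.17 here and did not pass. Without barcodes holding T or NK cell marker UMIs Smad7 was higher in MC38 (0.93 ± 0.19, edgeR adjusted p = 0.000417), and with all barcodes in every library Smad3 was called lower (-0.81, edgeR adjusted p = 0.0248). Among all CD45+ barcodes 7 of 8 were called (58.5% of all genes), the exception being Smad7 at -0.22 ± 0.12 (edgeR adjusted p = 0.132). Smad7 was called there under the cell filter (-0.51, edgeR adjusted p = 0.00249) and with no filter on low counts (-0.38, edgeR adjusted p = 0.0139), and in macrophages under the cell filter (-0.43, edgeR adjusted p = 0.0603). Tgfbr1 in all CD45+ cells was no longer called with no filter on low counts (edgeR adjusted p = 0.117). The 2 tumor comparisons share no library, but each shares its libraries with the radiation comparisons that follow.

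The next comparison asked what radiation did in MC38. Smad3 rose, from the lowest level of any group, in all CD45+ cells and in macrophages, and Smad7 rose in all CD45+ cells. Of the 8 members 2 were called in all CD45+ cells (11.7% of all genes), 1 in macrophages (13.6%) and 0 in monocytes (0.534%), each of them higher after radiation. In monocytes 2 members were below an unadjusted p of 0.05 in the edgeR test, and DESeq2 called none. Markers of other cells also moved. In the macrophage gate 4 monocyte markers summed to 76.5 to 203 CPM in untreated and 210 to 273 in irradiated MC38, 4 B cell markers to 3.41 to 6.27 (Fcmr and Pax5 at 0) and 6.501 to 11.9 (Fcmr at 0), and 4 NK cell markers to 1.49 to 7.01 (Eomes at 0) and 6.501 to 14.8. Among all CD45+ barcodes 4 endothelial markers summed to 16.4 to 21.3 CPM (Tek at 0) and 23.2 to 48.4, NK cell barcodes were 44 of 1327 and 65 of 1305, and T cell barcodes 67 and 93. Their part in the results was not tested.

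**Figure D3:**
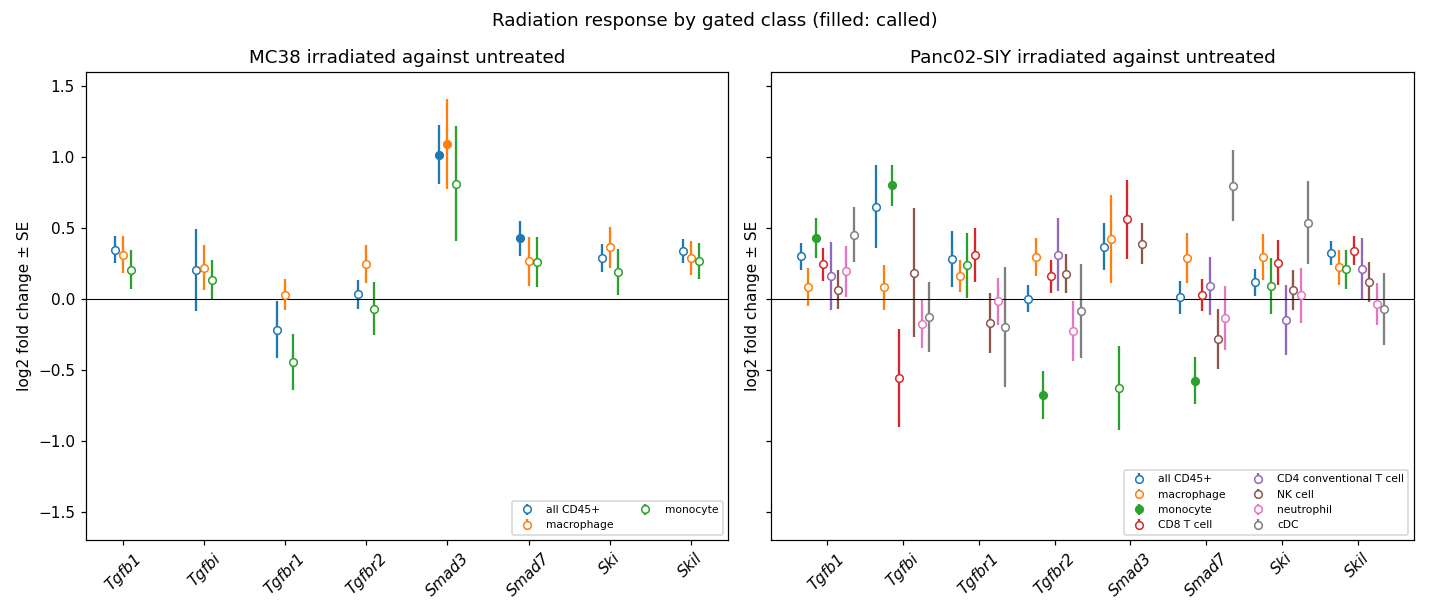
Log2 fold change ± SE of each TGF-β gene after radiation by class, for MC38 (left, 3 fits) and Panc02-SIY (right, 8 fits), with called changes filled. Smad3 stands highest in MC38 and monocyte Tgfbi in Panc02-SIY, and the filled monocyte points of Panc02-SIY lie on both sides of 0.

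Smad3 in all CD45+ cells was 5.44 to 5.90 CPM in untreated MC38, and 7.78, 12.3, 10.9 and 12.8 in replicates 1 to 4 of irradiated MC38. Every irradiated library was above every untreated one, and the change was 1.02 ± 0.21 on the log2 scale, 2.02-fold (edgeR adjusted p = 0.0072). In macrophages it was 5.80, 4.75, 4.03 and 4.43 before and 1.77, 9.69, 8.57 and 13.7 after radiation (1.09 ± 0.32, edgeR adjusted p = 0.0272). The macrophage groups overlapped, since irradiated replicate 1 was the lowest of all, and the levels rested on 60 and 79 UMIs over 4 libraries. Without irradiated replicate 4 the macrophage change was 0.70 and no longer called (edgeR adjusted p = 0.289), and with all barcodes in every library it was 0.72 and not called. In monocytes Smad3 was 2.07, 5.81, 9.03 and 6.56 before and 21.8, 11.3, 12.1 and 9.17 after, without overlap but short of the threshold (0.81 ± 0.41, edgeR adjusted p = 0.487).

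Smad7 in all CD45+ cells was 87.7, 108, 97.5 and 90.4 CPM before and 128, 99.4, 151 and 134 after radiation, and irradiated replicate 2 lay within the untreated range. The change was 0.43 ± 0.12 (edgeR adjusted p = 0.0385). It fell below the threshold without untreated replicate 1 (0.39), without irradiated replicate 3 (0.33), with no filter on low counts (0.38) and with all barcodes in every library (0.32). Within macrophages it was 0.26 ± 0.17 and within monocytes 0.26 ± 0.17, neither past the threshold.

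The ligand and the repressors of MC38 changed by less than the fold threshold. Tgfb1 in all CD45+ cells was 422, 475, 384 and 376 CPM before and 585, 522, 497 and 506 after radiation, without overlap, 1.27-fold (0.35 ± 0.09, edgeR adjusted p = 0.0294). Skil was 299, 322, 344 and 309 before and 413, 427, 393 and 381 after, also without overlap and 1.27-fold (0.34 ± 0.08, edgeR adjusted p = 0.0199). Within macrophages Skil was 251 to 279 before and 302 to 348 after, without overlap, at 0.29 ± 0.12 (edgeR adjusted p = 0.128). Ski was 0.29 ± 0.10 in all CD45+ cells and 0.36 ± 0.14 in macrophages (edgeR adjusted p = 0.0749 and 0.111). Tgfbr1 in all CD45+ cells was lower in each irradiated library (120 to 140 CPM) than in each untreated library (142 to 162) at -0.22 ± 0.20 (edgeR adjusted p = 0.563), and Tgfbr2 and Tgfbi gave 0.03 ± 0.10 and 0.21 ± 0.29.

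In Panc02-SIY 4 members were called after radiation, in the monocyte gate, and none of them under a stricter gate or without barcodes holding T or NK cell marker UMIs. Without such barcodes 0.728% of all genes were called in monocytes, and the share under the stricter gate is not given here. In the gate as reported Tgfbi and Tgfb1 were higher, and Tgfbr2 and Smad7 lower, in irradiated tumors, 4 of 8 members where 14.5% of all genes were called. No member was called in all CD45+ cells (14.7% of all genes) or macrophages (6.12%), where 4 and 1 members were below an unadjusted p of 0.05 in edgeR and DESeq2 called 1 and 0.

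Tgfbi in monocytes was 637, 410, 442 and 509 CPM in untreated and 774, 799, 860 and 1019 in irradiated Panc02-SIY, without overlap, a change of 0.80 ± 0.14 (edgeR adjusted p = 0.00133). Tgfbr2 was 79.7, 85.9, 88.2 and 77.7 before and 61.6, 53.2, 47.7 and 48.8 after, without overlap (-0.68 ± 0.17, edgeR adjusted p = 0.0114). Smad7 was 156, 131, 112 and 192 before and 92.4, 102, 98.1 and 98.8 after (-0.58 ± 0.17, edgeR adjusted p = 0.0276). All 4 irradiated libraries were below the untreated ones for both genes. Tgfb1 was 362, 312, 414 and 353 before and 459, 406, 517 and 563 after (0.43 ± 0.14, edgeR adjusted p = 0.0512), where irradiated replicate 2 lay within the untreated range. Without untreated replicate 2 (0.37), irradiated replicate 3 (0.41) or irradiated replicate 4 (0.38) Tgfb1 was no longer called, and without untreated replicate 4 Smad7 (-0.38) was not. Smad3 was 25.3, 35.1, 24.9 and 26.9 before and 7.70, 16.6, 23.0 and 20.8 after, lower in each irradiated library but not past the threshold (-0.63 ± 0.30, edgeR adjusted p = 0.201).

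Lymphoid markers in the monocyte gate moved with these changes. The 5 T cell markers summed to 385 to 642 CPM per library in untreated and 158 to 346 in irradiated Panc02-SIY, and the 4 NK cell markers to 137 to 2963 and 91.9 to 604. The 6 cDC markers moved the other way, from 210 to 352 before to 412 to 743 after, and 5 macrophage markers were 891 to 1260 and 1130 to 1617, with none of these markers at 0. Among barcodes with no UMI of a T or NK cell gate marker, the T cell sums were 22.4 to 101 and 7.49 to 25.1, and 0 of 7 members tested were called, against 0.728% of all genes. There Tgfbi was 0.39 ± 0.13 (edgeR adjusted p = 0.231), Tgfbr2 -0.50 ± 0.26 (0.507), Tgfb1 0.28 ± 0.14 (0.488) and Smad7 0.53 ± 0.29 (0.52), so Smad7 changed sign. That setting left 14 to 40 barcodes per untreated and 56 to 159 per irradiated Panc02-SIY library. With the stricter gate no member was called either, at 0.46 ± 0.15 for Tgfbi, -0.63 ± 0.22 for Tgfbr2, 0.24 ± 0.15 for Tgfb1 and 0.06 ± 0.22 for Smad7 (edgeR adjusted p = 0.176, 0.233, 0.602 and 0.98). The share of all genes called under the stricter gate is not given here, so that count cannot be set against it. Over all libraries of both tumors, Naaa held 314 CPM in the monocyte gate, and no other cDC marker exceeded 38.3 (Relb). The part of the cDC markers in the Tgfbi change was not tested.

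**Figure D4:**
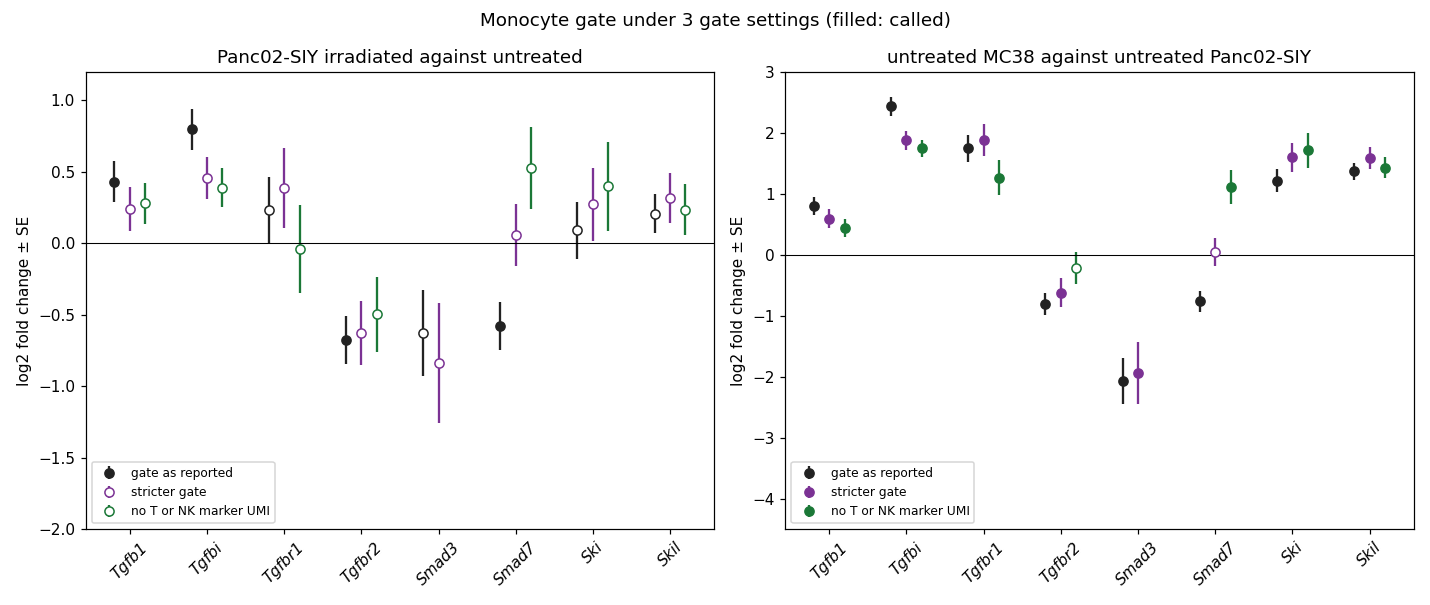
Log2 fold change ± SE of each TGF-β gene in the monocyte gate under 3 gate settings, for radiation in Panc02-SIY (left) and for the tumor difference before treatment (right), with called values filled. Smad7 moves from below to above 0 on both sides, and Tgfbi and Tgfbr1 on the right stay above 0.

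In all CD45+ cells of Panc02-SIY, Skil was 183, 185, 161 and 191 CPM before and 209, 207, 245 and 240 after radiation, without overlap and 1.25-fold (0.32 ± 0.08, edgeR adjusted p = 0.0171). Tgfb1 was 253, 245, 273 and 238 before and 292, 289, 351 and 310 after, without overlap and 1.23-fold (0.30 ± 0.09, edgeR adjusted p = 0.0407). Both stayed under the fold threshold. Among all CD45+ barcodes, neutrophils were 594 of 9405 before and 1002 of 8731 after radiation, and monocytes 253 and 691. Macrophages, at 1710 and 1004, and T cells, at 3005 and 2297, moved the other way. The part of this mix in the results was not tested. Tgfbi ranged from 123 to 354 before and from 228 to 588 after (0.65 ± 0.29, edgeR adjusted p = 0.16), and it was called by DESeq2 (0.69) and with the replicate number as a block (0.66, edgeR adjusted p = 0.027). In macrophages the largest change was Smad3 at 0.42 ± 0.31 (edgeR adjusted p = 0.518), and Tgfbr2, at 116 ± 20.4 before and 146 ± 16.03 after, was 0.30 ± 0.13 (edgeR adjusted p = 0.238).

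In the other Panc02-SIY gates, fitted on those 8 libraries alone, no member was called among 8 tested in T cells (7.91% of all genes called), CD8 T cells (7.34%) and NK cells (3.12%), 7 in neutrophils (0.0623%) and cDCs (0.017%), and 5 in CD4 conventional T cells (0.353%). Unadjusted edgeR p-values below 0.05 numbered 2, 1, 1, 0, 2 and 0 in that order, DESeq2 called Smad3 in T cells, and with the replicate number as a block Smad3 was called in T and NK cells and Tgfbi in T and CD8 T cells. Skil in CD8 T cells was 158, 157, 128 and 153 CPM before and 195, 175, 200.1 and 185 after radiation, without overlap, and its change of 0.34 ± 0.10 passed the p threshold but not the fold threshold (edgeR adjusted p = 0.0749). Smad3 in T cells was 7.69, 7.79, 6.96 and 6.65 before and 22.0, 13.9, 10.1 and 8.13 after, each irradiated library being higher (0.77 ± 0.27, edgeR adjusted p = 0.118). In NK cells, where it was highest, Smad3 was 77.0, 67.8, 54.1 and 63.8 before and 88.2, 81.3, 90.7 and 82.1 after, also without overlap (0.39 ± 0.14, edgeR adjusted p = 0.179). In cDCs Smad7 was 55.0 before and 97.0 after on average, without overlap (0.80 ± 0.25, edgeR adjusted p = 0.268). A p that misses the threshold does not show that these levels were alike.

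Whether the tumors responded differently was tested as the difference of the radiation responses, MC38 minus Panc02-SIY. No member was called in all CD45+ cells (0.345% of all genes), macrophages (0.0103%) or monocytes (1%). Unadjusted edgeR p-values were below 0.05 for 2, 0 and 5 members, and DESeq2 called Smad7 in monocytes. Monocyte Smad7 came nearest, at 0.84 ± 0.24 (edgeR adjusted p = 0.122), followed by Tgfbi at -0.66 ± 0.20 (0.134) and Smad3 at 1.44 ± 0.50 (0.214). Under the stricter gate these were 0.20 ± 0.29, -0.27 ± 0.21 and 1.48 ± 0.66, none called. Without barcodes holding T or NK cell marker UMIs Smad7 was -0.19 ± 0.35 and Tgfbi -0.28 ± 0.19, neither called, and Smad3 was not tested. In all CD45+ cells the response of Smad3 differed by 0.65 ± 0.27 (edgeR adjusted p = 0.338), so its rise in MC38 was not shown to exceed that in Panc02-SIY.

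Of 49 further genes of the pathway, 43 were tested in all CD45+ cells, 34 in macrophages and 31 in monocytes. After radiation in MC38, 5 rose in all CD45+ cells and 6 in macrophages, none fell, and none was called in monocytes, against 11.7%, 13.6% and 0.534% of all genes called in either direction, with median log2 changes of 0.26, 0.28 and 0.29 over the genes tested. The medians over all genes were 0.04, 0.03 and 0.01. Thbs1, whose product thrombospondin 1 activates latent TGF-β, went from 135 to 329 CPM in all CD45+ cells (1.28 ± 0.20), with Nedd9 at 0.75 and Rnf111, a ubiquitin ligase that degrades Ski and SnoN, at 0.40. In macrophages the endothelial-type receptor gene Acvrl1 went from 56.5 to 107 CPM (0.95 ± 0.15), and Id2 and Thbs1 rose by 0.80 each. In Panc02-SIY 3 rose in all CD45+ cells and 3 in macrophages, none fell, and 4 rose and 2 fell in monocytes (14.7%, 6.12% and 14.5% of all genes), with medians of 0.11, 0.25 and 0.15 against -0.03, 0.03 and -0.02 over all genes. In all CD45+ cells these were Thbs1 (1.08), Nrros (0.89), which encodes an anchor for latent TGF-β on myeloid cells, and Furin (0.50), the protease that cleaves the TGF-β precursor. There the 4 platelet markers summed to 11.2 to 15.8 CPM in untreated and 21.4 to 23.6 in irradiated Panc02-SIY, and their part was not tested. In macrophages the genes that rose were Thbs1 (0.99), Mmp14 (0.61) and Dab2 (0.48), and monocytes were led by Dab2 (1.87), Mmp14 (1.22) and Nrros (0.61). Without barcodes holding T or NK cell marker UMIs 0.728% of all genes were called in Panc02-SIY monocytes. Values of the pathway list in that setting are not given here. In T cells and in CD8 T cells Furin, Nedd9 and Rgs1 were called of 30 and 26 tested (7.91% and 7.34% of all genes), at 0.63, 0.45 and 0.47 in CD8 T cells, and no gene of the list was called in the other gates.

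Between untreated tumors 8 genes of the list were higher and 8 lower in MC38 macrophages, and 13 higher and 8 lower in monocytes, where 45.8% and 49.1% of all genes were called, with medians of -0.08 and 0.19 against 0.02 and -0.03 over all genes. Pmepa1, a TGF-β-induced gene whose product dampens Smad signaling, had the largest difference in macrophages, 559 ± 97.0 CPM in MC38 and 36.0 ± 2.93 in Panc02-SIY (3.95 ± 0.30, edgeR adjusted p = 6.53e-08). Irradiated tumors gave 472 ± 140 and 51.3 ± 29.1 (3.08 ± 0.28). Furin was higher in MC38 macrophages as well, by 2.17 before and 2.36 after radiation, and Smad1, which transduces the bone morphogenetic protein branch, was lower, by -1.54 and -1.67. Among untreated monocytes Dab2 (3.11), Mmp14 (2.14) and Acvrl1 (1.83) led, and among irradiated monocytes Pmepa1 (2.70), Rgs1 (2.02) and Id1 (2.87). In all CD45+ cells 18 were higher and 14 lower in untreated MC38, and 16 and 10 in irradiated MC38 (61.1% and 58.5% of all genes). In irradiated macrophages 9 were higher and 5 lower (48.4%), and in irradiated monocytes 12 and 7 (47%). The difference of the radiation responses was called for 4 genes of the list, all in monocytes (1% of all genes). Without barcodes holding T or NK cell marker UMIs 0.0297% of all genes were called in monocytes for that difference.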

How the data were processed

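The submitters' processing notes name bcl2fastq 2.20.0, Cell Ranger 3.1.0 and mm10, and the authors deposited 1 matrix of UMI counts per library. These raw counts were checked to be whole numbers. The TGF-β genes, the gene lists and the pathway list were chosen with earlier results of these data known. Class gates used the sum of a class's marker genes relative to the barcode's UMIs, divided by the 0.99 quantile of that sum. A barcode needed 0.1 of that, 2 UMIs and a 2-fold lead over the next class (stricter gate 0.2, 3 and 3). Markers were set first, the scoring rule after the counts had been seen. In 29.2% of macrophages and 36.9% of monocytes the score lay within 2-fold of a cut. No doublet caller was run, and barcodes whose markers of 2 classes were apart by at least that lead remained in the gates.

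Counts were summed per library and class and tested with edgeR 4.0.16 (R 4.3.3, limma 3.58.1, TMM, filterByExpr, glmQLFit and glmQLFTest, 1 coefficient per group over 16 libraries), with the study's thresholds. The named genes were the members, and of the pathway list at most 3 called genes with the smallest p per comparison and class. DESeq2 1.42.0, size factors of the relative log expression kind, no low-count filter, other thresholds, only the groups compared, the replicate number as a block, all barcodes in every library, a stricter gate, a cell filter (at least 500 genes, at most 10% mitochondrial UMIs) and leaving out each library were tried. Class levels used Python 3.11.15, scipy 1.17.1, a pseudocount of 10 CPM, at least 10 barcodes per class and library, and sign flips within libraries (100000 resamples, or exact below 10 libraries). In simulated macrophage counts of the MC38 comparison, with 9712 genes, 81% of genes changed 2-fold were recovered. The share was 74% in simulated monocyte counts and 72% in those of all CD45+ cells. The low counts of Smad3 limit its precision most. No supplementary values were used, and the result of 1 check marker is not reported here.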

Additional observations from a re-analysis of the deposited data

Results flagged for a closer look

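A library stood apart from the other 3 of its group in 8 of 192 groups of 4 tested, by a gap to its nearest neighbour above Dixon's critical value, and chance flags about 1 in 20. In untreated Panc02-SIY, replicate 1 was high for macrophage Tgfbi (1728 CPM, others 1115 to 1165), macrophage Tgfb1 (418, others 294 to 308) and Smad3 in all CD45+ cells (24.0, others 15.8 to 16.6), and replicate 3 was low for Skil in CD8 T cells (128, others 153 to 158). In irradiated Panc02-SIY, replicate 1 was high for Tgfbr2 in NK cells (106, others 95.1 to 95.8), replicate 3 for Tgfbr1 in cDCs (44.4, others 14.0 to 15.4) and replicate 4 for Tgfbi in neutrophils (386, others 311 to 323). In irradiated MC38, replicate 1 was high for Tgfb1 in macrophages (504, others 335 to 364).

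In the monocyte gate as reported, edgeR called the difference of the radiation responses for 4 genes of the pathway list and no member. The response of MC38 minus that of Panc02-SIY was -1.44 ± 0.35 (log2 ± SE) for the endocytic adaptor Dab2 (adjusted p = 0.0611), -1.40 ± 0.31 for the membrane protease Mmp14 (0.0424), -0.97 ± 0.24 for the latent TGF-β anchor Nrros (0.0654) and 2.09 ± 0.44 for the inhibitor of differentiation Id2 (0.0572). Lymphoid, macrophage and cDC markers also moved in this gate in Panc02-SIY, and their part was not tested for these genes. Among barcodes with no UMI of a T or NK cell gate marker, 2 genes were called for this difference, 0.0297% of those tested. The gate as reported gave 1%. At most 2 of these 4 genes stayed called there, and which they were is not given here.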

How the results depend on the processing

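Of 44 called member results, 9 fell below the threshold with the same sign under at least 1 alternative, and 2 changed sign. Monocyte Smad7 after radiation in Panc02-SIY is in both counts, and its untreated tumor difference is only in the second. Smad7 in monocytes turned to 0.059 (stricter gate) and 0.53 (no T or NK marker UMI) for radiation in Panc02-SIY, from -0.58, and to 0.042 and 1.12 for the untreated tumor difference, from -0.77. Calls over the 3 classes were 3 for radiation in MC38 (1 with all barcodes in every library, 2 to 5 when a library was left out, with 5 without untreated MC38 replicate 2) and 4 in Panc02-SIY (0 with the stricter gate, 2 above a log2 change of 0.58, 3 to 6 without a library). Calls for the tumor differences were 21 of 24 before radiation (21 in each leave-one-out fit) and 16 after (16 to 17). These counts do not show that the members called were the same. Calls over all genes moved too, for radiation in MC38 macrophages from 1317 to 625 with all barcodes in every library. The share of all genes called in Panc02-SIY monocytes under the stricter gate is not given here. For the difference of the responses 0 became 1 with DESeq2, 1 with no filter, 1 with the replicate block, 2 with all barcodes in every library, and 0 to 1 without a library, with 1 when replicate 2 of untreated MC38, or 1 or 3 of untreated Panc02-SIY, was omitted. In the other Panc02-SIY gates 0 became 1 with DESeq2, 4 with the replicate block (Smad3 and Tgfbi in T cells, Tgfbi in CD8 T cells, Smad3 in NK cells) and 0 to 2 without a library, with 2 without untreated Panc02-SIY replicate 1 and 1 without irradiated Panc02-SIY replicate 4. The 6 neighbouring classes that differed became 11 with all barcodes and 10 with the stricter gate. They were 0 to 8 when a library was left out, with 8 without irradiated Panc02-SIY replicate 1 and 0 without any other Panc02-SIY library. Fewer libraries also raise the smallest exact p that a pair can give. The 5 calls of the class-by-tumor test were 5 to 6 without a library. The cause of these changes was not tested. Samples with the same replicate number had deviations correlated above 0.1 in 3, 2 and 2 of 8 pairs (all CD45+, macrophages, monocytes), and 4, 3 and 4 correlated best with their own number. All 7 of those pairs above 0.1 were in Panc02-SIY, and since not every pair was above 0.1 in either tumor, the fit without the block was the one reported. Among pairs best with their own number, MC38 gave only replicate 1 (all CD45+) and replicate 4 (monocytes), and Panc02-SIY the others. The highest correlation was 0.75, for Panc02-SIY replicate 4 in all CD45+ cells. The block added Tgfbi in all CD45+ cells of Panc02-SIY (0.66) to the 4 calls there. Smad3, at 24 to 131 UMIs per group in the macrophage and monocyte gates, is limited most by depth.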
